A study of Ovis aries with 6 samples.

Results

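The SLC2 genes encode the GLUT proteins, membrane carriers that let glucose and related sugars or polyols cross down their gradients. The members described here were chosen by gene name, from 10 symbols given in advance, among the 24390 genes of the full count table of sheep perirenal adipose tissue, the fat that surrounds the kidney. A row was found for 9 of the 10, namely SLC2A1, SLC2A3, SLC2A4, SLC2A6, SLC2A8, SLC2A9, SLC2A10, SLC2A12 and SLC2A13. No row carried the name SLC2A5, and that gene is not analysed here. Enough counts for a test were present for 7 of the 9, and SLC2A6 and SLC2A9 were too low.

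The animals were wild-type pure-bred Merino sheep. One group was 3 fetuses of 132 days post conception (term is 150 days) and the other 3 lambs, whose age the labels give as 80 days after birth, as 89 days and as 12 weeks. No treatment was applied according to the labels, although the titles of the lamb samples, and only those, carry the letters VEH, which the sources used here do not explain. Libraries are of bulk tissue from 1 animal each, with n = 3 animals per stage in every comparison.

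SLC2A4 encodes GLUT4, the carrier that insulin moves from internal vesicles to the surface of fat and muscle cells. SLC2A1 and SLC2A3 encode GLUT1 and GLUT3, which sit at the cell surface without insulin and serve basal uptake. Perirenal fat of the fetal sheep is brown-like, and brown fat is known for a high glucose uptake, while white fat uses glucose for triacylglycerol storage.

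The libraries held between 15907128 and 19150428 counts. Genes of the mitochondrial genome took between 27.5% and 40.7% of the fetal and between 7.37% and 8.29% of the lamb counts. Libraries were therefore scaled by TMM (trimmed mean of M values), which sets the factors from the bulk of genes. Levels are given as CPM, the count relative to the size of the TMM-scaled library. Differences are log2, lamb minus fetal, ± SE, with Benjamini-Hochberg adjusted p from edgeR's quasi-likelihood test over 13624 genes, called below 0.05. Of all these genes 44.7% were called, 22.0% higher and 22.7% lower in lambs, and their median difference was -0.01. Library totals as the only scaling moved that median up by 0.47, and raised the part of called genes that were higher in lambs from 49.3% to 79.3%.

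Of the 7 SLC2 genes tested, 1 was called lower in lambs, SLC2A4, none was called higher, and 6 did not pass. SLC2A1 (adjusted p = 0.0693) was the closest of the 6. The median difference of the 7 genes was -0.20. The levels of the stages did not overlap for 2 of the 7, SLC2A4 and SLC2A1, 1 in each direction, while of all genes tested 57.7% had stages that did not overlap, 28.2% higher and 29.5% lower in lambs. Called members made up 14.3% of those tested, under the 44.7% of all genes, and with 7 genes this is given as a description.

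**Figure D1:**
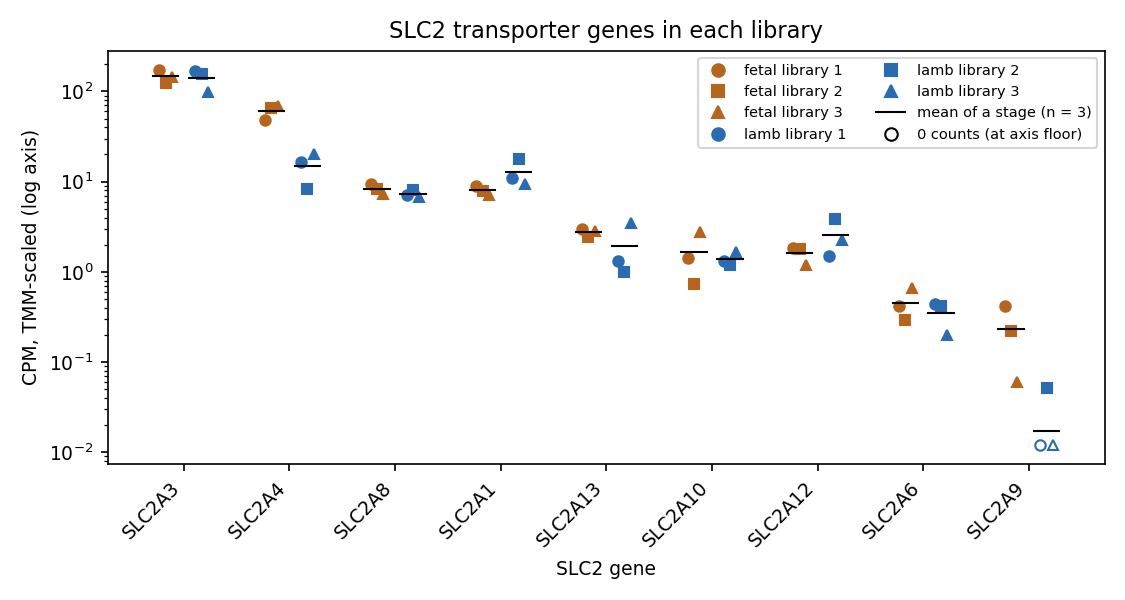
Level of each of the 9 SLC2 genes (CPM, log axis) in the 3 fetal (brown) and 3 lamb (blue) libraries, with the mean of each stage as a line and libraries without a count as open symbols at the axis floor. The SLC2A4 values of lambs, between 8.30 and 20.2 CPM, lie below all fetal values, and the SLC2A1 values of lambs, from 9.35 CPM up, lie above all fetal values.

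SLC2A4 (ENSOARG00000011448, chromosome 11, 26615572 to 26620086 on Oar v3.1) was at 47.8, 65.3 and 68.9 CPM in fetal libraries 1, 2 and 3 and at 16.4, 8.30 and 20.2 CPM in lamb libraries 1, 2 and 3. Every lamb value was below every fetal value, and lamb library 2 was the lowest of all. The mean fell from 60.7 ± 11.3 to 15.0 ± 6.07 CPM (SD, n = 3 each), a log2 difference of -2.02 ± 0.31 (edgeR adjusted p = 0.00174), or 4.06-fold. Those levels rest on 800 to 1155 counts in a fetal and 160 to 404 counts in a lamb library. The call held in all 16 alternative settings, with the difference between -2.30 and -1.55. In the authors' deposited table the gene has a signed fold of -4.01 with adjusted p = 6.94e-10, in a comparison where 22.3% of all 24390 genes were below 0.05. In such bulk samples, fewer cells of a type and less RNA per cell cannot be told apart.

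Skeletal muscle also expresses SLC2A4, and some muscle markers moved the same way. Of 9 muscle markers looked for, 6 had a row, 4 were tested and 3 of these were lower in lambs. Their summed level ranged from 27.4 to 129 CPM in fetal and from 7.66 to 11.3 CPM in lamb libraries. The highest muscle sum, 129 CPM, was in fetal library 1, which had the lowest fetal SLC2A4 level. MYH1 and MYLPF had at most 0.0597 and 0.119 CPM in fetal libraries 2 and 3. ACTA1 did not stay above the lambs in those libraries, at 1.69 and 0.477 CPM against 1.04 to 3.32 CPM, and was not called. CKM, MB and TNNI2 did stay above the lambs there. The TNNI2 call was lost without fetal library 1, without any 1 lamb library, with limma-voom and in a blocked fit by number. CKM, the muscle creatine kinase, was at 17.1 and 42.9 CPM in fetal libraries 2 and 3 and between 5.88 and 9.05 CPM in lambs. MB, for myoglobin, was at 7.06 and 2.45 CPM there and at most 0.1 CPM in lambs, and both genes were called lower. Without fetal library 1 the SLC2A4 difference was -2.17, and the part of muscle in it was not tested. Markers of adipocytes, the main cell of the tissue, moved the other way. Of 8 found, 6 were higher in lambs and 1, the brown fat gene UCP1, was lower, and their sum ranged from 15100 to 19000 CPM in fetuses and from 28200 to 38700 CPM in lambs. Lamb library 2, lowest in SLC2A4, also had the lowest adipocyte sum of the lambs. Urothelial markers, all 8 called lower, summed to between 53.7 and 187 CPM in fetuses and at most 0.692 CPM in lambs, and Schwann cell markers to at most 30.9 CPM in fetuses and at least 104 CPM in lambs, with 1 called in each direction. Sums of fibroblast, pericyte, T cell and B cell markers overlapped between stages. Pericyte and smooth muscle markers summed to 1010 CPM in lamb library 2, against 408 and 450 CPM in lamb libraries 1 and 3. Among lambs, MYH11 (589 CPM), CNN1 and PDGFRB were highest in library 2, and RGS5, CSPG4 and NOTCH3 lowest. Adrenal markers summed to between 23.8 and 35.2 CPM in fetuses and between 37.8 and 48.0 CPM in lambs, without overlap. None of the 3 tested was called, and DBH was at 0 in all libraries. Most of the sum was STAR, at 22.8 ± 6.53 and 34.9 ± 8.22 CPM, whose own stages overlapped. The part of cell make-up in the SLC2A4 difference was not tested.

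SLC2A1 (ENSOARG00000020471, chromosome 1, 17151598 to 17168082) was at 9.03, 7.80 and 7.16 CPM in fetal libraries 1, 2 and 3 and at 10.9, 17.8 and 9.35 CPM in lamb libraries 1, 2 and 3. The stages did not overlap, but lamb library 3 lay just above fetal library 1, and lamb library 2 stood well above the other lambs. Means were 8.0 ± 0.948 and 12.7 ± 4.51 CPM, a log2 difference of 0.66 ± 0.26 that did not pass the test (edgeR adjusted p = 0.0693). Without lamb library 2 the difference was 0.34 (adjusted p = 0.18), and without lamb library 3 it was 0.84 and passed (0.0331). It was also called by DESeq2's Wald test (0.68, adjusted p = 0.0476) and with library totals (1.15, 0.00709), and over all 16 settings adjusted p ranged from 0.00709 to 0.18. The authors' deposited table gives a fold of 1.6 with adjusted p = 0.1. Red cells carry GLUT1 in some mammals. The red cell sum ranged from 376 to 1300 CPM in fetuses and from 50.1 to 79.3 CPM in lambs. HBB alone had means of 701 and 21.3 CPM. Of 5 red cell markers tested 4 were called lower, while EPB42, at 18.8 and 21.5 CPM on average, overlapped between stages. Endothelium is another site of GLUT1. Its 8 markers summed to between 1660 and 2050 CPM in fetuses and between 1710 and 1840 CPM in lambs, with 1 called higher and 2 lower. The part of red cells and endothelium in the SLC2A1 level was not tested.

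SLC2A3 (ENSOARG00000002234, chromosome 3, 206193144 to 206206504) had the most counts of the family in every library. It was at 175, 124 and 143 CPM in fetal libraries 1, 2 and 3 and at 169, 156 and 97.4 CPM in lamb libraries 1, 2 and 3. The stages overlapped, although lamb library 3 lay below every fetal value. The log2 difference of -0.06 ± 0.23 did not pass (edgeR adjusted p = 0.837), and its sign turned with library totals (0.40) and without fetal library 1 (0.07) or lamb library 3 (0.14). GLUT3 is known from neurons, platelets and white blood cells. The macrophage markers summed to between 202 and 461 CPM in fetuses and between 1300 and 1620 CPM in lambs, with 7 of 11 tested called higher and 1 lower. Of 6 platelet markers only TREML1 and PPBP had a row, and these summed to at most 0.299 CPM in any library. The part of these cells in the SLC2A3 level was not tested.

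SLC2A8 encodes GLUT8, a carrier that stays mostly on internal membranes (ENSOARG00000012161, chromosome 3, 8658504 to 8667340). It was at 9.45, 8.39 and 7.22 CPM in fetal libraries 1, 2 and 3 and at 7.07, 8.10 and 6.70 CPM in lamb libraries 1, 2 and 3. It varied least among lambs of the 7 tested genes, the highest lamb being 1.21 times the lowest. The difference of -0.20 ± 0.17 did not pass (edgeR adjusted p = 0.388) and was 0.28 with library totals. SLC2A6, for GLUT6, another internal carrier (chromosome 3, 2450179 to 2458966), had 7, 4 and 11 counts in the fetal and 9, 8 and 4 in the lamb libraries. At this depth a difference was not detectable, since the rate in fetuses was 1.32 times that in lambs with a 95% exact interval, for counting error only, of 0.695 to 2.53.

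SLC2A12, for GLUT12, a carrier of insulin-sensitive tissues (ENSOARG00000014685, chromosome 8, 59168055 to 59234840), was at 1.85, 1.77 and 1.19 CPM in fetal libraries 1, 2 and 3 and at 1.48, 3.89 and 2.25 CPM in lamb libraries 1, 2 and 3. Lamb library 2 was again the highest and lamb library 1 lay among the fetal values. Its difference of 0.66 ± 0.41 did not pass (edgeR adjusted p = 0.222), was 0.22 without lamb library 2, and passed only with library totals (1.16, adjusted p = 0.0419). SLC2A10, for GLUT10, which is known to carry dehydroascorbate (ENSOARG00000009200, chromosome 13, 74938789 to 74943816), was at 1.43, 0.736 and 2.75 CPM in fetal and at 1.33, 1.19 and 1.65 CPM in lamb libraries 1, 2 and 3. The fetal values spread 3.73-fold and enclosed all lamb values. The difference of -0.25 ± 0.47 did not pass (edgeR adjusted p = 0.693) and turned to 0.34 without fetal library 3 and to 0.17 with library totals.

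SLC2A13 encodes HMIT, which takes up myo-inositol with protons (ENSOARG00000019998, chromosome 3, 146918912 to 147430624). It was at 2.99, 2.43 and 2.86 CPM in fetal libraries 1, 2 and 3 and at 1.33, 0.986 and 3.50 CPM in lamb libraries 1, 2 and 3. Fetuses were alike, while lamb library 3 was the highest of all 6 and the other lambs were the lowest. The difference of -0.51 ± 0.47 did not pass (edgeR adjusted p = 0.407), but without lamb library 3 it was -1.25 and passed (adjusted p = 0.0226). SLC2A9, a urate carrier (ENSOARG00000007831, chromosome 6, 104589460 to 104773099), had 7, 3 and 1 counts in the fetal and 0, 1 and 0 in the lamb libraries. That is 11 counts against 1, a fetal rate 13.9 times the lamb rate with a 95% exact interval of 2.02 to 599 for counting error only. In a fit without a filter on low counts it did not pass (edgeR adjusted p = 0.0677).

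**Figure D2:**
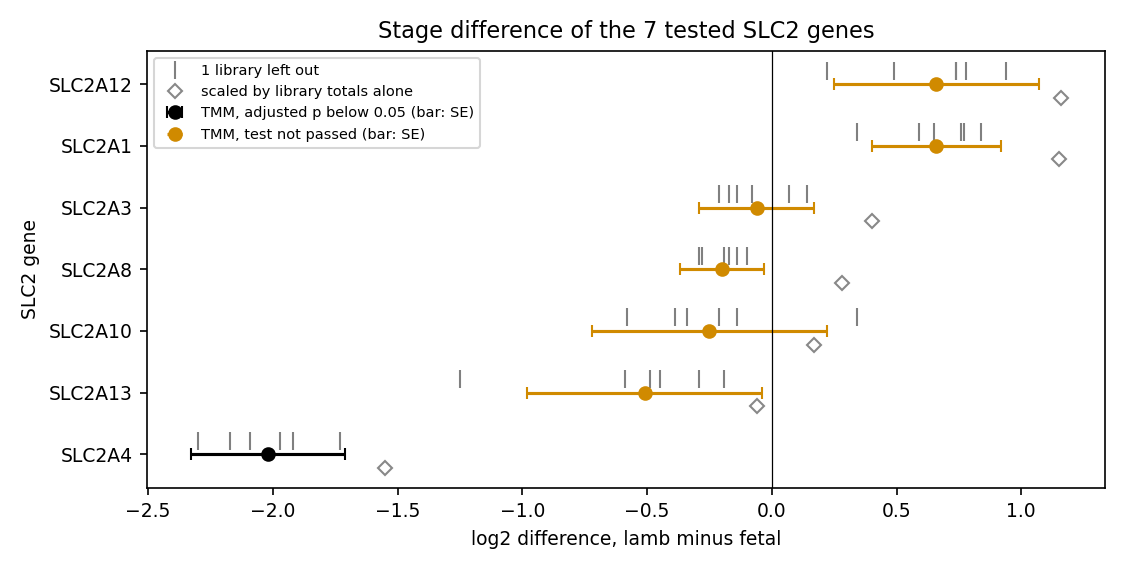
Log2 difference between stages (lamb minus fetal) for the 7 tested SLC2 genes, with SE bars, the values on leaving out 1 library (grey ticks) and those scaled by library totals alone (open diamonds). SLC2A4, at -2.02, stays far left of 0 in every setting drawn, and SLC2A3, SLC2A8 and SLC2A10 change sign with the scaling.

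Levels of different genes can be compared only per length. Relative lengths were taken from the ratio of counts to the authors' RPKM, which divides reads by gene length and by library size, in fetal library 1 and the 3 lamb libraries. They were steady, within 1.5-fold between libraries, for 6 members. For SLC2A12 (1.72-fold), SLC2A13 (2.62-fold) and SLC2A9 (6.30-fold, 2 libraries) they were not, and these 3 are left out. In the authors' deposited table SLC2A13 has a mean RPKM of 14.6 in fetuses and 15.9 in lambs although it had between 19 and 70 counts, so the reads behind that RPKM differ from the counts.

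In fetuses, CPM per length on the scale of the SLC2A4 gene was 60.7 ± 11.3 for SLC2A4 and 53.5 ± 9.38 for SLC2A3, and the values of these genes overlapped. SLC2A8 followed at 15.2 ± 2.03 and SLC2A1 at 10.6 ± 1.26, but the lowest SLC2A8 value, 13.2, and the highest SLC2A1 value, 12.0, lay closer than the relative lengths of these genes, which varied up to 1.2-fold and 1.13-fold between libraries, can separate. SLC2A10 at 1.98 ± 1.23 and SLC2A6 at 0.458 ± 0.185 were the lowest. In lambs SLC2A3 stood alone at the top on this scale, at 51.2 ± 13.9, with its lowest library at 35.3. SLC2A1 (16.8 ± 5.98), SLC2A4 (15.0 ± 6.07) and SLC2A8 (13.3 ± 1.32) came next and overlapped one another. SLC2A10 (1.68 ± 0.282) and SLC2A6 (0.355 ± 0.134) were again the lowest. The authors' deposited mean RPKM, which is not TMM-scaled, was 25.5 and 8.44 for SLC2A4, 24.9 and 29.2 for SLC2A3, and 4.24 and 9.60 for SLC2A1, in fetuses and lambs respectively.

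As a share of the summed counts per length of the 6 members, SLC2A4 made up 33.5%, 47.6% and 46.8% in fetal libraries 1, 2 and 3 and 15.3%, 7.90% and 24.5% in lamb libraries 1, 2 and 3. Every lamb share was below every fetal share, with means of 42.6 ± 7.92% and 15.9 ± 8.33%. A two-sided exact permutation test returned p = 0.1 (0.3 adjusted over the 6 shares tested), the lowest value this design can reach. SLC2A1 made up 8.39%, 7.54% and 6.45% in fetuses and 13.5%, 22.5% and 15.1% in lambs, again without overlap (exact p = 0.1, adjusted 0.3). For SLC2A3 the shares were 37.5 ± 6.20% and 51.4 ± 7.53% and overlapped (exact p = 0.2, adjusted 0.3). SLC2A8 held 10.7 ± 1.61% and 13.6 ± 1.45% (exact p = 0.2). A share needs no scaling between libraries, but a lower share of 1 gene raises the others.

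**Figure D3:**
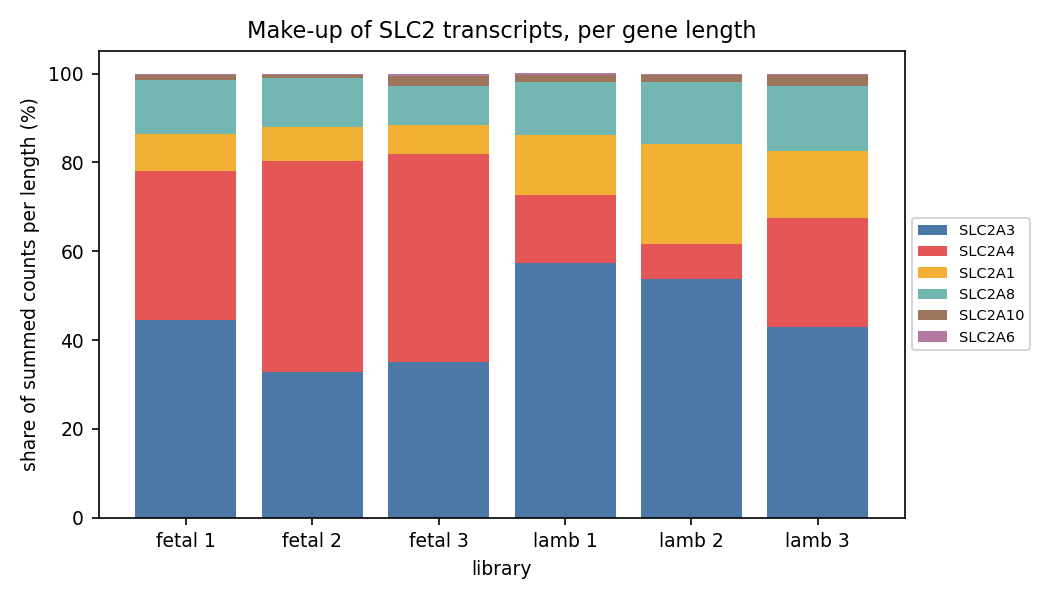
Share of each of 6 SLC2 genes in their summed counts per gene length (percent) in the 3 fetal and 3 lamb libraries, 1 bar each. The SLC2A4 part (red) takes 33.5% or more of every fetal bar and at most 24.5% of a lamb bar, while the SLC2A1 part (yellow) is wider in each lamb bar.

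The ratio of SLC2A4 to SLC2A1 counts within a library, which depends on no scaling factor, was 5.30, 8.38 and 9.62 in fetal libraries 1, 2 and 3 and 1.5, 0.466 and 2.16 in lamb libraries 1, 2 and 3. All lamb ratios were below all fetal ratios, and in lamb library 2 SLC2A1 had more counts than SLC2A4. On the log2 scale the means were 2.91 ± 0.45 and 0.20 ± 1.16, a difference of -2.71 (two-sided exact permutation p = 0.1, the smallest this design allows). Leaving out 1 library gave values between -3.17 and -2.06.

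Among genes that move GLUT4 vesicles to and from the cell surface, 31 were tested, and 5 were higher and 4 lower, while 22 did not pass (median 0.09, 29.0% called against 44.7% of all genes tested). With library totals as the only scaling the counts were 19 higher and 1 lower, and without fetal library 1 only 2 were lower. TBC1D4, the AKT substrate that holds GLUT4 vesicles back until insulin acts, fell from 95.9 ± 5.61 to 24.5 ± 4.84 CPM (log2 difference -1.97 ± 0.16, edgeR adjusted p = 0.000125), and all lamb values, 20.6 to 29.9 CPM, were below the fetal ones. LNPEP, the aminopeptidase that travels in the same vesicles, fell by 1.24 ± 0.34 on the log2 scale. That call was lost without fetal library 1 or 3, without lamb library 3 and with library totals (adjusted p between 0.052 and 0.0765). SORT1, a sorting receptor of these vesicles, was at 145 ± 2.18 and 124 ± 32.9 CPM (-0.23 ± 0.19, adjusted p = 0.358, and 0.24 with library totals). The small GTPase gene RHOQ fell by 0.84 ± 0.23, a call lost without fetal library 1 or 2, without lamb library 1 and with library totals (adjusted p between 0.0516 and 0.218). Members that rose most were LRP1, a large endocytic receptor (1.95 ± 0.21), TRIP10, a partner of RHOQ (1.93 ± 0.13), and EHD2, a protein of caveolae (1.5 ± 0.22). TBC1D1, opposite to TBC1D4, and EHBP1 also rose, by 0.69 ± 0.15 and 0.76 ± 0.20. The EHBP1 call was lost without fetal library 2 or 3.

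Glucose that has entered is trapped by hexokinases. Of 14 tested genes of hexose phosphorylation and release, 3 were higher and 4 lower, while 7 did not pass (median -0.15). The 50.0% called lay near the 44.7% of all genes tested. With library totals 5 were higher and 1 lower, DESeq2's Wald test called 5 higher, and without fetal library 2, fetal library 3 or lamb library 1 the lower calls were 2. HK1, the widely expressed hexokinase, rose from 153 ± 21.7 to 247 ± 12.1 CPM (0.69 ± 0.14, edgeR adjusted p = 0.00574). HK2, the hexokinase of insulin-sensitive tissues, rose from 1.17 ± 0.513 to 5.80 ± 1.83 CPM (2.28 ± 0.41, adjusted p = 0.00337) and stayed well below HK1 in counts. SLC37A1, a sugar phosphate exchanger, rose by 1.03 ± 0.27, a call lost without fetal library 2. PGM1, which links glucose 6-phosphate to glycogen, fell by 1.44 ± 0.22. GPI, the next enzyme of glycolysis, fell by 0.77 ± 0.20, and so did the phosphatase gene G6PC3, by 0.77 ± 0.20. The GPI call was lost without lamb library 1 (adjusted p = 0.0509), the G6PC3 call without fetal library 2 (0.0536) or 3 (0.0564), and both with library totals (0.245 and 0.325).

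Of 14 tested regulators of transporter stability and surface level, 6 were higher and 3 lower, while 5 did not pass (median 0.35, 64.3% called against 44.7% of all genes tested, 22.0% higher and 22.7% lower). TXNIP, an arrestin-like protein that takes glucose transporters off the surface, had no row under that name. Its relative ARRDC4, known to act on glucose uptake, was at 6.10 ± 1.56 and 9.30 ± 2.69 CPM and did not pass (0.61 ± 0.28, edgeR adjusted p = 0.116). Of the other arrestin-like genes, ARRDC3 rose by 2.26 ± 0.18 and ARRDC2 by 1.26 ± 0.24. ARRDC1 was lower in every lamb but did not pass (-0.20 ± 0.11, edgeR adjusted p = 0.181). STOM, for the GLUT1-binding membrane protein stomatin, rose by 0.75 ± 0.15. The AMP-activated kinase subunits PRKAG2 and PRKAA2 fell by 1.75 ± 0.14 and 1.70 ± 0.18, while the subunits PRKAB1 and PRKAA1 rose by 0.52 ± 0.11 and 0.37 ± 0.11. The PRKAA1 call was lost without fetal library 1 or 3 and in a blocked fit by number (adjusted p up to 0.0951). The other subunits tested, PRKAB2 (0.34 ± 0.22) and PRKAG1 (-0.46 ± 0.17), did not pass. BSG, a chaperone of lactate carriers, fell by 1.13 ± 0.23.

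Of 20 transcription factors and cofactors known to act on SLC2A4 or SLC2A1, 11 were higher and 5 lower, while 4 did not pass (median 0.52, 80.0% called against 44.7% of all genes tested). With library totals 2 were lower. SREBF1, a factor of lipogenic genes, fell from 206 ± 36.6 to 51.9 ± 17.0 CPM (-1.99 ± 0.27). CEBPA, a factor of adipocyte differentiation known to bind the SLC2A4 promoter, fell by 1.31 ± 0.25. The glucose-sensing factor gene MLXIPL fell by 1.22 ± 0.31, a call lost with library totals (adjusted p = 0.0558). KLF15, described as an activator of SLC2A4, rose from 7.56 ± 1.88 to 30.7 ± 5.28 CPM (2.02 ± 0.22). MEF2A, another activator, rose by 0.47 ± 0.14, a call lost without fetal library 2 or 3 or lamb library 3 (adjusted p between 0.0629 and 0.0791). Of the same family MEF2D rose by 0.99 ± 0.11, and MEF2C fell by 0.91 ± 0.18, a call lost with library totals (adjusted p = 0.131). Factors known to raise SLC2A1 were among the increases. HIF1A of the hypoxia response rose from 88.4 ± 11.3 to 582 ± 102 CPM (2.72 ± 0.18). MYC rose from 34.9 ± 7.61 to 165 ± 35.0 CPM (2.24 ± 0.22). SLC2A1 itself did not pass the test. The part of the factors of this list in the SLC2A4 and SLC2A1 levels was not tested.

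**Figure D4:**
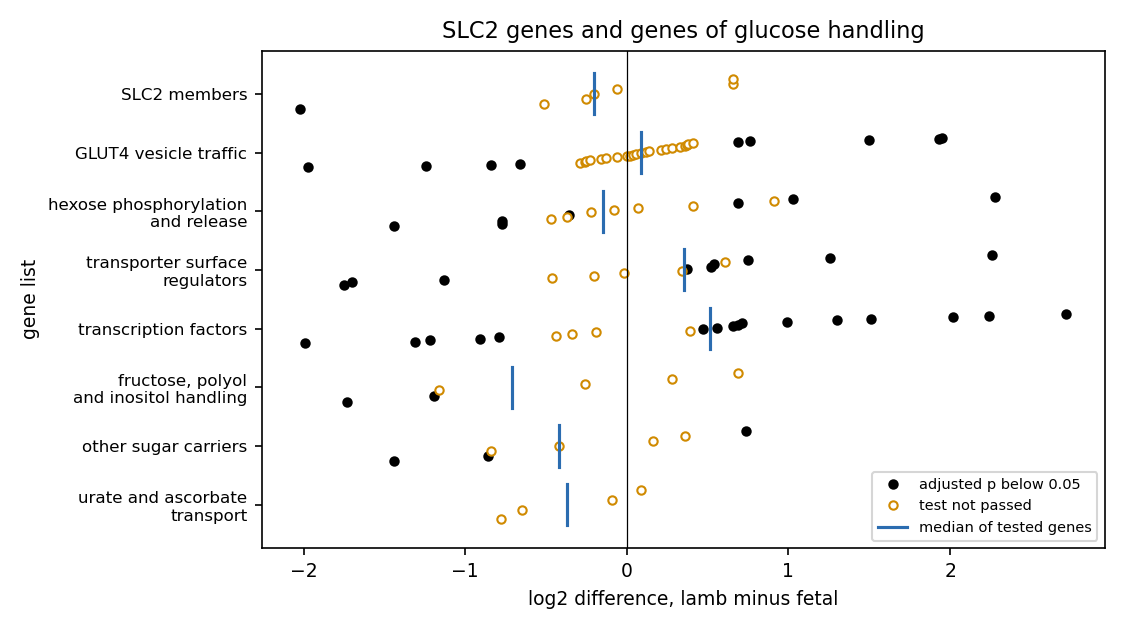
Log2 difference between stages (lamb minus fetal) for the tested genes of the SLC2 family and of 7 lists of glucose handling, 1 circle per gene, filled where edgeR adjusted p was below 0.05, with the list's median as a blue line. SLC2A4 is the leftmost circle of its row at -2.02, and both directions occur among called genes of the vesicle, hexose, surface regulator and transcription factor lists.

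The lists for other carriers and for the substrates of the minor SLC2 proteins had few tested genes. Of 6 tested genes of fructose, polyol and inositol handling, 2 were lower and none higher (median -0.71, 33.3% called against 44.7% of all genes tested). These were ISYNA1, which makes myo-inositol (-1.73 ± 0.35), and TKFC, a triokinase of fructose breakdown listed as DAK (-1.19 ± 0.15). Of 7 tested sodium-coupled and other sugar carriers, 1 was higher and 2 lower (median -0.42), and the 42.9% called lay near the 44.7% of all genes. The nucleotide sugar carrier gene SLC35A2 rose by 0.74 ± 0.19, a call lost without fetal library 1 or 3. SLC50A1 fell by 0.86 ± 0.14, a call lost with library totals, and SLC45A3 fell by 1.44 ± 0.41, a call lost in 7 of the 16 settings, with stages that overlapped. Of 4 tested genes of urate and ascorbate transport none was called by edgeR's quasi-likelihood test. SLC2A2, the GLUT2 carrier of liver, pancreas and kidney, had at most 0.299 CPM in a fetal library and 0 counts in all lamb libraries, where 0 allows up to 0.156 CPM, and kidney markers were low in both stages, with sums between 3.06 and 6.10 CPM.

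Patterns over the 6 libraries were compared by the root mean square difference of log2 CPM, each gene centred on its own mean, among 9065 other genes with a symbol and at least 5 CPM on average. The 5 genes nearest to SLC2A4 were SREBF1 (0.126), TKT (0.161), CPT2 (0.184), HOOK2 (0.185) and SMPD3 (0.217), against a median of 1.16 over all genes compared. Like SLC2A4, these genes were lower in lambs, with log2 differences between -2.08 and -1.75. Nearest to SLC2A1 were FIG4 (0.074), PID1 (0.125), NFKBIB (0.127), ARHGEF25 (0.143) and PLEKHH2 (0.143), against a median of 0.506. Such nearness rests on 6 points that mostly separate the stages. Lamb library 2, the lowest in SLC2A4, was also the lowest lamb for 10 of the 16 genes named by rule from the lists above that were called lower, for 45.9% of all genes called lower and for 35.7% of all genes tested.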

How the data were processed

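RNA of 6 libraries was sequenced as single-end reads. Per the series' design text, the authors mapped reads to Ensembl models of Oar v3.1 in CLC Genomics Workbench and deposited raw counts per gene, RPKM, and an edgeR comparison with p-values and a signed fold score. The sources used here do not give read filters, the handling of multiply placed reads or strand use. The full table was used. Of its per-library columns, 2 of RPKM were left out because a header repeats.

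The members and lists were chosen with earlier results of these data known. Counts were filtered (filterByExpr), TMM-scaled and tested with edgeR 4.0.16 in R 4.3.3 without covariates, checked on simulated data. The simulation changed 200 genes, equally up and down. It cannot judge TMM scaling in the real data, where far more genes were called. SE is the log2 difference over the root of F. Alternatives were other factors, filters and tests (DESeq2 1.42.0, limma-voom 3.58.1), a replicate block and leaving out each library. Same-numbered libraries are different animals. Named genes were all members, from each list up to 3 called per direction at 1 CPM or more, and HK1, HK2, TXNIP, TBC1D4, SORT1, LNPEP, MEF2A and KLF15. Other list and marker genes named in the text were chosen after their values were seen. PPARG and HBB are listed as PPARG2 and HBBB. Interval and zero limits (3 counts) cover counting error only. Marker lists for other cells were summed in CPM.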

Additional observations from a re-analysis of the deposited data

How the results depend on the processing

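SLC2A4 was called lower in all 16 alternatives. With library totals in place of TMM, 5598 genes were called higher and 1459 lower, against 3002 and 3093, and 2 SLC2 members were called higher (SLC2A1 and SLC2A12). SLC2A3 was then at 0.40, SLC2A8 at 0.28, SLC2A10 at 0.17 and SORT1 at 0.24, each reversed. List counts with library totals were 19 higher and 1 lower for GLUT4 vesicle traffic, 5 and 1 for hexose phosphorylation and release, 2 lower for transcription factors, 2 higher for fructose, polyol and inositol handling, 2 higher and 0 lower for sugar carriers, and 1 higher for urate and ascorbate transport. The DESeq2 Wald test called 1 SLC2 member and 5 hexose genes higher, limma-voom called 1 sugar carrier lower, and no filter gave 1 urate or ascorbate gene lower. With the replicate number as a block the SLC2A4 difference was -2.08 (adjusted p = 0.00426) and 1 sugar carrier was lower. The block changed no other count by over 1.5 times. Deviations of same-numbered libraries from their stage means had correlations of 0.00327, -0.116 and 0.046 across genes. Differently numbered libraries reached -0.14 and 0.14, so these correlations cannot show whether the numbers pair animals.

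Leaving out 1 library gave 0 to 1 SLC2 members higher and 1 to 2 lower, 2286 to 2796 genes higher and 2512 to 2903 lower. For the lists it gave 4 to 7 higher and 2 to 5 lower (vesicle traffic), 2 to 4 and 2 to 5 (hexoses), 0 to 1 and 2 to 2 (fructose and inositol), and 0 to 1 and 1 to 2 (sugar carriers). Over the libraries left out SLC2A3 lay between -0.21 and 0.14 and SLC2A10 between -0.58 and 0.34. Their reversals were SLC2A3 at 0.07 without fetal library 1 and 0.14 without lamb library 3, and SLC2A10 at 0.34 without fetal library 3. The SLC2A6 share difference, 0.0332 percentage points, was -0.0186 without fetal library 2 and -0.0067 by counts without length scaling, and over all libraries left out lay between -0.0186 and 0.0974. Depth limits SLC2A6 and SLC2A9, and 3 animals per stage limit every exact test to p = 0.1. The causes were not tested.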
